A study of Homo sapiens with 48 samples.

Results

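The early response of 92-1, an established uveal melanoma cell line, to FHT-1015 was described across all genes from 6 of the 48 RNA-seq libraries of the study. The members were chosen by their titles: the 3 libraries of 92-1 cells treated with FHT-1015 for 4 h and the 3 libraries of 92-1 cells of the same experiment held in DMSO, the negative control, for 4 h. Both groups carry the genotype label WT, both are titled as biological replicates 1 to 3, and the labels give no dose. In the rest of the series the same drug was given to 92-1 for 24 h and to the uveal melanoma lines MEL202 and MP41 for 4 and 24 h, each with DMSO, and IDE196, an inhibitor of protein kinase C, was given to 92-1. The labels do not say how the cultures of a group were kept apart, so p-values measure only the spread between these samples, which may be technical. Each group is cells of 1 line, so the comparison is between treatments of that line.

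FHT-1015 is described in the series as a dual inhibitor of SMARCA4 and SMARCA2, the alternative ATPase motors of the BAF (SWI/SNF) complexes. BAF complexes use ATP to slide and evict nucleosomes, which keeps enhancers open to the transcription factors that bind them. Uveal melanoma arises from melanocytes of the eye, cells whose identity is held by the transcription factors SOX10 and MITF, and is typically driven by mutant Gq proteins that signal through protein kinase C to the MAP kinases.

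The libraries held 16211413 to 24005016 reads in genes with FHT-1015 and 16599430 to 19536985 in DMSO. Values per sample are TMM-normalised CPM, read counts scaled to a common depth, listed for replicates 1, 2 and 3 in that order. The labelled cell type was checked on 8 melanocytic markers, which were all above 1 CPM and summed to 15200 to 17200 CPM with FHT-1015 and 19900 to 21100 CPM in DMSO. The summed markers of fibroblasts, immune cells, endothelium, and epithelium and pigment epithelium reached at most 10.3 CPM in any of the 6 libraries, and of 8 markers each 1, 0, 0 and 2 had a mean of at least 1 CPM over these libraries. ERG, an ETS factor of the endothelial list, was 0.250, 0.177 and 0.251 CPM with FHT-1015 and 2.07, 1.06 and 0.726 CPM in DMSO and was called lower (adjusted p 0.00218). On the second principal component of the 12 libraries of the experiment, with 16.4% of the variance, the 3 libraries with FHT-1015 at 4 h lay between -49.9 and -46.6, whereas the other 9 had positive values. Reads mapped outside genes made up 5.38% to 6.49% of reads with FHT-1015 and 4.28% to 4.68% in DMSO, ranges that did not overlap. The DMSO libraries at 24 h had 4.38%, 6.6% and 5.11%, so replicate 2 there was above every treated library at 4 h. The part of these reads in the results below was not tested.

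Within 4 h, 2016 genes (12.9% of 15685 tested) were higher with FHT-1015 and 2615 (16.7%) were lower, at a Benjamini-Hochberg adjusted p under 0.05 in edgeR's quasi-likelihood test, so 4631 genes (29.5%) were called. In bulk RNA, fewer cells of a type and less RNA per cell cannot be told apart. The falls were the larger changes. Past a log2 fold change of 1 in size (a 2-fold change) there were 389 higher genes (2.48% of those tested) and 797 lower genes (5.08%), past 2 there were 38 and 191, and past 3 there were 5 and 41. The median log2 fold change was 0.55 among the higher genes, -0.70 among the lower genes and 0.007 over all genes tested. Scaling to a common depth hides a change shared by all genes, and the 92 spike-ins listed held 0 reads. A change in total RNA per cell could thus not be seen. Over all genes tested, 6801 (43.4%) had replicates that did not overlap between the groups. With the genes split by mean CPM into 4 classes of equal size, lower genes made up 8.34% of the lowest class and 19.7%, 19% and 19.6% of the others. The drug's targets were both still expressed: SMARCA4 was 342, 374 and 414 CPM with FHT-1015 and 279, 303 and 308 CPM in DMSO, a rise (log2 fold change 0.35, SE 0.09, adjusted p 0.00665). SMARCA2 was 44.4, 42.8 and 35.3 against 45.5, 46.2 and 45.2 CPM and did not pass the threshold (log2 fold change -0.16, adjusted p 0.276).

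**Figure D1:**
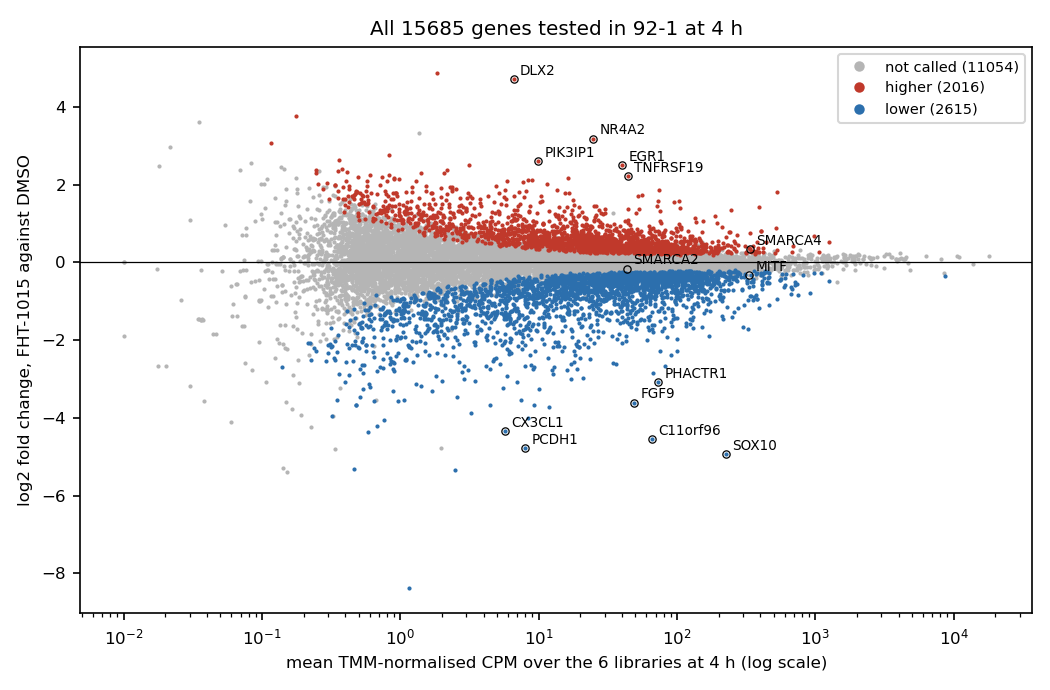
Log2 fold change at 4 h (FHT-1015 against DMSO) plotted against the mean TMM-normalised CPM over the 6 libraries on a log axis, with 1 point per gene tested; red points are the 2016 genes called higher, blue points the 2615 called lower and grey points the rest. Past 3 in size there are 41 falls and 5 rises, with SOX10 at -4.94 and DLX2 at 4.72.

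The largest falls, among protein-coding genes with a mean of at least 5 CPM whose replicates did not overlap, began with the lineage factor SOX10 (ENSG00000100146.17, chromosome 22, 37970686 to 37987422, minus strand). SOX10 was 13.2, 11.6 and 18.2 CPM with FHT-1015 and 399, 459 and 451 CPM in DMSO. The others code for proteins of several kinds, among them an adhesion molecule, secreted growth factors and a chemokine. PCDH1 (ENSG00000156453.13, chromosome 5, 141853111 to 141879246, minus strand), a protocadherin of cell contacts, was 0.626, 0.619 and 0.377 CPM against 21.8, 12.5 and 11.8 CPM (log2 fold change -4.77, SE 0.33, adjusted p 4.77e-08). CX3CL1 (ENSG00000006210.7, chromosome 16, 57372458 to 57385048, plus strand), the membrane-bound chemokine fractalkine, was 0.501, 0.354 and 0.817 against 11.2, 8.75 and 12.9 CPM (log2 fold change -4.34, SE 0.27, adjusted p 1.37e-08). PCDH1 and CX3CL1 had less than 1 CPM in every treated library and more than 8 CPM in every control library.

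Growth factors and signalling proteins were also among the largest falls. FGF9 (ENSG00000102678.6, chromosome 13, 21671383 to 21704498, plus strand), a secreted fibroblast growth factor, was 7.13, 7.20 and 7.98 CPM with FHT-1015 and 78.7, 91.7 and 101 CPM in DMSO (log2 fold change -3.61, SE 0.21, adjusted p 1.08e-08). NRG2 (ENSG00000158458.20, chromosome 5, 139846779 to 140043299, minus strand), a neuregulin and so a ligand of the ERBB receptors, was 1.08, 1.28 and 0.754 against 9.39, 10.5 and 10.2 CPM (log2 fold change -3.23, SE 0.20, adjusted p 1.24e-08). In neither gene did the treated and control values overlap, and the treated values of FGF9 lay within 1 CPM of each other. ATOH8 (ENSG00000168874.13, chromosome 2, 85751344 to 85788066, plus strand), a basic helix-loop-helix transcription factor, was 0.918, 1.68 and 1.45 against 18.5, 17 and 16 CPM (log2 fold change -3.68, SE 0.17, adjusted p 1.48e-09). ST3GAL5 (ENSG00000115525.18, chromosome 2, 85837120 to 85905199, minus strand), the sialyltransferase that makes the ganglioside GM3, was 1.17, 1.41 and 0.880 against 14.9, 12.7 and 13.4 CPM (log2 fold change -3.53, SE 0.17, adjusted p 1.48e-09). ATOH8 and ST3GAL5 are neighbours on chromosome 2, and each had less than 2 CPM in every treated library. PHACTR1 (ENSG00000112137.17, chromosome 6, 12716805 to 13290484, plus strand), a regulator of protein phosphatase and actin, was 17.8, 13.4 and 15.1 against 143, 124 and 126 CPM (log2 fold change -3.08, SE 0.12, adjusted p 2.23e-10).

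The remaining large falls were KLHL30 (ENSG00000168427.9, chromosome 2, 238138722 to 238152947, plus strand), a kelch-like protein, with -3.73, SPSB1 (ENSG00000171621.14, chromosome 1, 9292880 to 9369532, plus strand), a SOCS-box adaptor of ubiquitin ligases, with -3.25, and C11orf96 (ENSG00000187479.7, chromosome 11, 43942505 to 43944338, plus strand), with -4.54 on the log2 scale. C11orf96 was 3.75, 4.55 and 8.49 CPM with FHT-1015 and 91.5, 136 and 152 CPM in DMSO, but its exons overlap 2 other genes, ENSG00000254409 over 41.9% of their length on the same strand and ENSG00000244953 over 30.1% on the opposite strand. Reads were counted without strand, so those from overlapping genes cannot be told apart. The calls of these 11 genes were kept under every alternative and in every fit that left out a library.

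The 12 largest rises, under the same conditions, were led by DLX2 (ENSG00000115844.11, chromosome 2, 172099439 to 172102900, minus strand), a homeobox transcription factor of the neural crest and forebrain. DLX2 was 9.22, 11.4 and 17.4 CPM with FHT-1015 and 0.615, 0.371 and 0.423 CPM in DMSO (log2 fold change 4.72, SE 0.28, adjusted p 1.2e-08). It was below 1 CPM in every control library and at least 9 CPM in every treated library. NR4A2 (ENSG00000153234.14, chromosome 2, 156324432 to 156342348, minus strand), an orphan nuclear receptor, was 34.8, 46.5 and 53.3 against 3.63, 4.51 and 6.65 CPM (log2 fold change 3.19, SE 0.22, adjusted p 5.53e-08). EGR1 (ENSG00000120738.8, chromosome 5, 138465490 to 138469315, plus strand), a zinc finger transcription factor induced within minutes by growth signals, was 61.4, 64.6 and 79.8 against 10.7, 9.75 and 15.7 CPM (log2 fold change 2.51, SE 0.20, adjusted p 1.83e-07). In both genes the lowest treated value was more than 3 times the highest control value.

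Beside these factors, the rises held a receptor, inhibitors of signalling and a guidance ligand. PIK3IP1 (ENSG00000100100.12, chromosome 22, 31281593 to 31292534, minus strand), an inhibitor of phosphatidylinositol 3-kinase, was 16.9, 16.8 and 17.5 CPM with FHT-1015 and 2.01, 2.54 and 3.87 CPM in DMSO (log2 fold change 2.61, SE 0.19, adjusted p 1.02e-07). TNFRSF19 (ENSG00000127863.15, chromosome 13, 23570370 to 23676104, plus strand), a receptor of the tumour necrosis factor family also called TROY, was 72, 78.6 and 68.5 against 12.1, 17 and 17.7 CPM (log2 fold change 2.23, SE 0.13, adjusted p 9.2e-09). SEMA3A (ENSG00000075213.11, chromosome 7, 83955777 to 84492724, minus strand), a secreted semaphorin that repels growing axons, was 11, 10.6 and 6.98 against 2.24, 2.60 and 1.88 CPM (log2 fold change 2.09, SE 0.19, adjusted p 8.2e-07). The treated values of PIK3IP1 differed from each other by less than 1 CPM. The others were UBASH3B (ENSG00000154127.10, chromosome 11, 122655675 to 122814473, plus strand), a phosphatase that restrains receptor signalling, with 2.12, SLC16A9 (ENSG00000165449.11, chromosome 10, 59650761 to 59736002, minus strand), a transporter of carnitine and monocarboxylates, with 2.06, ZNF341 (ENSG00000131061.14, chromosome 20, 33731657 to 33792269, plus strand), a zinc finger transcription factor, with 2.12, and CFAP418 (ENSG00000156172.6, chromosome 8, 95244919 to 95269201, minus strand), a cilium protein, with 2.16. SPDYE3 (ENSG00000214300.7, chromosome 7, 100307702 to 100322196, plus strand, 2.03) belongs to a family of near-identical copies and FPGT (ENSG00000254685.6, chromosome 1, 74198212 to 74234086, plus strand, 1.87) shares exons with the read-through gene FPGT-TNNI3K, so both values are uncertain. None of the 12 calls was lost under an alternative or without a library.

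**Figure D2:**
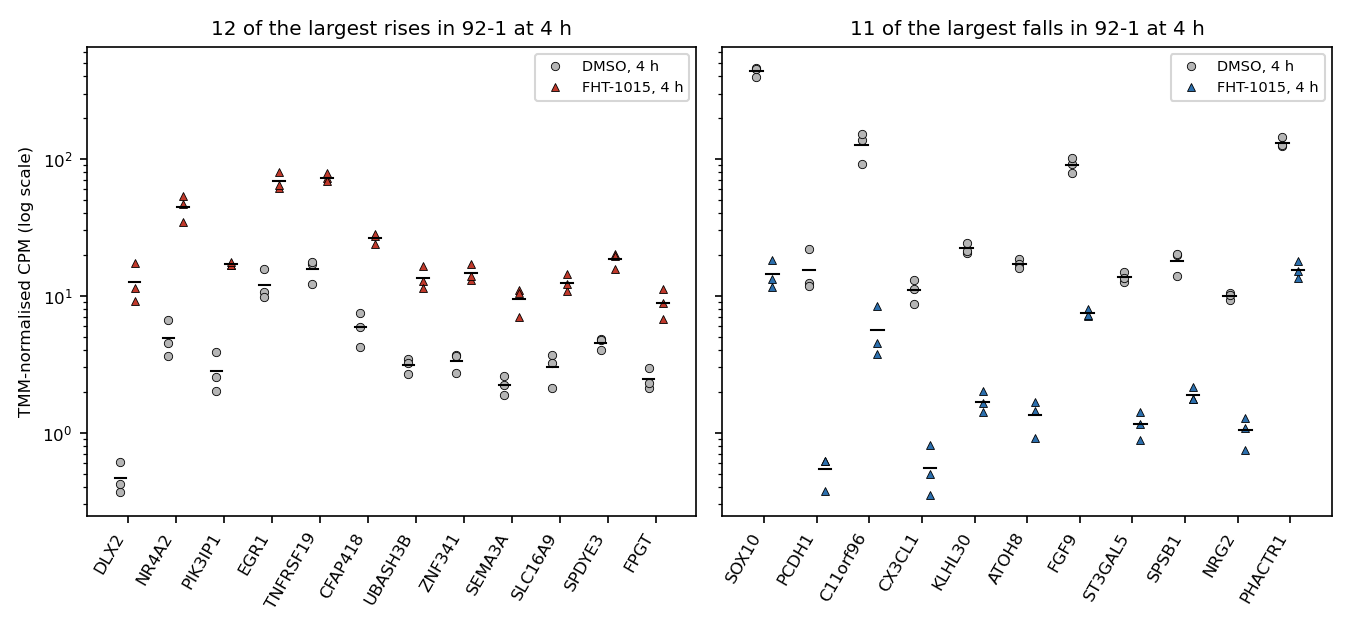
TMM-normalised CPM on a log axis in each of the 6 libraries for 12 of the largest rises (left) and 11 of the largest falls (right); grey circles are DMSO, coloured triangles FHT-1015, and short lines the means of 3. In each of the 23 genes the treated and control values do not overlap, and DLX2 and PCDH1 cross 1 CPM in opposite directions.

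Among regulators of the neural crest and melanocyte lineage, 17 of 20 listed genes were tested. Of these 3 were higher and 5 lower, beside 12.9% and 16.7% of all genes, so the rises were not far from that share. The median log2 fold change was -0.03 (0.007 over all genes). The members moved in both directions. ERBB3 (ENSG00000065361.15, chromosome 12, 56076799 to 56103505, plus strand), a neuregulin receptor that SOX10 is known to activate, fell from 167, 124 and 139 CPM to 23, 24 and 19.9 CPM (log2 fold change -2.68, SE 0.11, adjusted p 5.74e-10). IRF4, a transcription factor of pigment and immune cells, was 0.0834, 0.0884 and 0 CPM with FHT-1015 and 1.23, 0.901 and 0.544 CPM in DMSO, a fall for which no fold is given because no treated library held more than 2 reads. ZEB1 and ZEB2, related zinc finger repressors, fell by 0.84 and 0.40 on the log2 scale. SNAI2 (ENSG00000019549.12, chromosome 8, 48917604 to 48921740, minus strand), the repressor Slug of neural crest cells, rose from 225, 224 and 187 to 588, 586 and 530.3 CPM (log2 fold change 1.42, SE 0.13, adjusted p 8.18e-07). FOXD3 (ENSG00000187140.5, chromosome 1, 63323041 to 63325126, plus strand), a forkhead factor of early neural crest, rose from 4.25, 4.61 and 5.75 to 12, 14.4 and 21.5 CPM (log2 fold change 1.71, SE 0.24, adjusted p 7.79e-05). SOX4, a SOX factor of another class than SOX10, rose by 0.68. MITF, the master regulator of pigment genes, was 354, 298 and 236 CPM with FHT-1015 and 370.1, 378 and 358 CPM in DMSO. All 3 treated values lay under the control values, but MITF did not pass the threshold (log2 fold change -0.32, adjusted p 0.0719), except without FHT-1015 replicate 1 at 4 h or DMSO replicate 1 at 24 h, with limma-voom, with the replicate block (adjusted p 0.0262) and without the low-count filter. PAX3 and TFAP2A, other factors of the lineage, had log2 fold changes of -0.03 and 0.01 and were not called. Of 10 genes of glia and Schwann cells that SOX10 is known to regulate, 7 were tested: MBP, a myelin protein, fell by 1.75, CDH19, a cadherin of Schwann cell precursors, rose by 1.20, and the call of GJB1 (-1.11) was lost on leaving out any of 6 libraries (DMSO replicates 1 and 2 or FHT-1015 replicates 2 and 3 at 4 h, or DMSO replicates 2 and 3 at 24 h), with library size alone and with only the 6 samples at 4 h.

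The pigment genes, which code for enzymes and structural proteins of the melanosome and for its transport, were mostly lower. Of 20 genes, all tested, 14 were lower and 1 higher, beside 16.7% and 12.9% of all genes. The median log2 fold change was -0.48. The changes were small beside that of SOX10. TYR, the rate-limiting enzyme of melanin synthesis, was 242, 232 and 200.3 CPM with FHT-1015 and 326, 339.6 and 281 CPM in DMSO (log2 fold change -0.49, SE 0.12, adjusted p 0.0049). MLANA, a melanosome protein, was 394, 392.3 and 398 against 559, 539.9 and 470.3 CPM (log2 fold change -0.41, SE 0.08, adjusted p 0.00147). In both genes the groups did not overlap. MLPH, which links melanosomes to myosin, had -1.05, RAB27A, the small GTPase of the same complex, -1.03, and MYO5A, its motor, -0.69. RAB38 and RAB32, other small GTPases of the list, had -0.31 and -0.24. The call of RAB38 was lost without DMSO replicate 2 or 3 or FHT-1015 replicate 2 at 4 h, and that of RAB32 on leaving out any of 9 libraries, all but replicate 1 of DMSO at 4 h and 24 h and of FHT-1015 at 24 h. RAB32 also lost it with relative log expression, library size alone, no low-count filter and only the 6 samples at 4 h. CAPN3, a calpain protease, had -1.94, although the unnamed transcript ENSG00000258461 covers 57.1% of its exonic length on the same strand, and SLC24A5, an ion exchanger of the melanosome, -1.04, which was -0.68 with the sum of both stranded columns, and its exons overlap MYEF2. TRPM1, a cation channel, was the gene higher (94.2, 117 and 87.9 against 81.2, 82.5 and 72.8 CPM, log2 fold change 0.34, adjusted p 0.0328), a call that was lost without DMSO replicate 1, 2 or 3 or FHT-1015 replicate 2 at 4 h. PMEL, DCT, GPR143, GPNMB and ATP7A were not called.

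Promoters were read for the 10994 of 15685 tested genes that have an entry in the RefSeq table (GRCh38.p14), as the 250 bases before the annotated start. The hexamer CATGTG, the core of the sites that MITF binds, was searched on both strands. It was found in 5 of the 12 pigment genes that were lower and have a promoter entry (TYRP1, SLC24A5, TYR, OCA2 and LYST) and in 5.53% of the promoters of all genes tested. Of the 17 members with an entry 8 held it, the higher TRPM1 and the uncalled GPR143 and GPNMB among them. The promoters of TYRP1 and SLC24A5 are shown 5′ to 3′ on the strand of the gene because both were called lower and have a match next to the start, with the hexamer or its reverse complement CACATG in capitals. The fall of TYRP1, the melanosomal enzyme of brown pigment, was small (log2 fold change -0.35, SE 0.11, adjusted p 0.0276) and its call was lost without DMSO replicate 1 or 2 or FHT-1015 replicate 2 or 3 at 4 h. TYRP1 (chr9:12693135-12693384, plus strand) has 2 matches, whose left bases lie 144 and 11 bases before the start, and SLC24A5 (chr15:48120740-48120989, plus strand) has 1, at 15 bases.
TYRP1: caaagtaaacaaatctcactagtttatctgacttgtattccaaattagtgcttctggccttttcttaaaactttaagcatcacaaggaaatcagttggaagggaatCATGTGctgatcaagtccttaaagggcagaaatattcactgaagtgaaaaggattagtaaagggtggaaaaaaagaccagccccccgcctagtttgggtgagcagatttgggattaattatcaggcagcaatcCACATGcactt
SLC24A5: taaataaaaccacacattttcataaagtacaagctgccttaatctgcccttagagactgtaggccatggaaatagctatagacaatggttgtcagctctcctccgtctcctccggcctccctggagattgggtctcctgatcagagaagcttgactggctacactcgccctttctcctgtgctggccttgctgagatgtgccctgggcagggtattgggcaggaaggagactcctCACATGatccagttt

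Immediate early genes, which cells induce within minutes of a signal without new protein synthesis, were mostly higher. Of 28 listed, 27 were tested, with 15 higher and 4 lower, beside 12.9% and 16.7% of all genes. The share lower was thus near that of all genes, and the median log2 fold change was 0.38. Beside NR4A2 and EGR1, the NR4A receptor NR4A3 (ENSG00000119508.18, chromosome 9, 99821855 to 99866891, plus strand) was 932, 849 and 705 CPM with FHT-1015 and 222, 239.7 and 241 CPM in DMSO (log2 fold change 1.82, SE 0.14, adjusted p 1.1e-07). FOSB, a partner in the AP-1 dimer, was 10.9, 11.7 and 13 against 3.19, 3.02 and 4.84 CPM (log2 fold change 1.69, SE 0.22, adjusted p 2.96e-05). IER2, a nuclear protein of unsettled function, was 93.1, 98.9 and 124 against 41.1, 37.7 and 36 CPM (log2 fold change 1.46, SE 0.14, adjusted p 1.9e-06). In these 3 genes every treated value lay above every control value. EGR3 rose by 1.46, JUNB by 0.95, FOS by 0.94 and KLF10 by 0.79, while NR4A1, the other NR4A receptor, was higher by 0.38, a call lost without DMSO replicate 1 or 3 or FHT-1015 replicate 2 or 3 at 4 h. EGR4 was at most 1.01 CPM in any of the 6 libraries (1.76, adjusted p 0.0396). Its call was lost with DESeq2, with limma-voom and on leaving out any of 8 libraries (DMSO replicates 1, 2 and 3 and FHT-1015 replicates 1 and 3 at 4 h, DMSO replicate 3 and FHT-1015 replicates 2 and 3 at 24 h).

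Not all members rose. JUN (-0.61), ATF3 (-0.01), KLF2 (-0.28), KLF4 (0.27) and KLF6 (0.04) were not called. BTG2, an antiproliferative gene that p53 also induces, fell from 15.1, 10.3 and 14.2 to 4.76, 3.01 and 4.09 CPM (log2 fold change -1.74, SE 0.20, adjusted p 6.91e-06). IER5 fell from 68.7, 96 and 76.4 to 28.5, 26.7 and 33 CPM (log2 fold change -1.45, SE 0.12, adjusted p 3.73e-07). ARC, a cytoskeletal protein of synapses, had at most 1 read in a treated library and 0.391, 0.848 and 1.51 CPM in the controls, a fall for which no fold is given. IER3 was at -1.89, but at -0.65 with the sum of both stranded columns, and IER3-AS1 covers 26.5% of its exonic length on the opposite strand.

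The pentamer TGACG, the half-site of the cAMP response element that CREB and ATF factors bind, was searched in the same promoters on both strands. It was found in 10 of the 11 immediate early genes that were higher and have an entry (NR4A3, EGR1, EGR4, FOS, FOSB, FOSL2, JUNB, IER2, ZFP36L1 and SRF), in 4 of the 9 other members with an entry (BTG2, JUN, JUND and KLF4), in 31.9% of all higher genes, in 25.8% of lower genes and in 30.1% of all genes tested. These counts are a description of 20 promoters. The calls of FOSL2 and SRF were lost without DMSO replicate 1 or FHT-1015 replicate 2, and without DMSO replicate 3 at 4 h, respectively. The CArG box, the site of the serum response factor, was found in EGR1 and SRF and in 1.04% of all genes tested. Its share was 1.31% in higher and 1.46% in lower genes, and 0.467% (1 of 214) in genes higher past 1 on the log2 scale. In genes lower past 1 and past 2 it was 2.2% (12 of 546) and 4.24% (5 of 118). The promoters of EGR1, NR4A3 and FOSB are shown as examples of immediate early genes that rose and hold the pentamer, and that of DLX2 as the first of the rises described above, with TGACG or its reverse complement CGTCA in capitals. EGR1 (chr5:138465229-138465478, plus strand) has 2 matches, NR4A3 (chr9:99821635-99821884, plus strand) 4, FOSB (chr19:45467746-45467995, plus strand) 1 and DLX2 (chr2:172102901-172103150, minus strand) 3.
EGR1: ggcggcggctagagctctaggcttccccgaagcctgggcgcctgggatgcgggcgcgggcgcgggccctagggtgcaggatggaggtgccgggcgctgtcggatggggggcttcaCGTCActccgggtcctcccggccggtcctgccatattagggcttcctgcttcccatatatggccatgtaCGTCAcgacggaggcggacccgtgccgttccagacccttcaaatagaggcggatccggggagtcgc
NR4A3: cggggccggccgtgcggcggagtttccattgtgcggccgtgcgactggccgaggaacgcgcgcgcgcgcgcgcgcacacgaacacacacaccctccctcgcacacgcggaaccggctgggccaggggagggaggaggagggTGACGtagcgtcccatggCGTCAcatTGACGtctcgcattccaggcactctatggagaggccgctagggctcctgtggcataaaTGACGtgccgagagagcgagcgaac
FOSB: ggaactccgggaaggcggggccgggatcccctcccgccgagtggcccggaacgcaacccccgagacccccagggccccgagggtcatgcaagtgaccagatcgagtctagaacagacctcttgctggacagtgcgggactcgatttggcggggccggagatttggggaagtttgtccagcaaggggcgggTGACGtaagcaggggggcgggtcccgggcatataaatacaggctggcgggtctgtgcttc
DLX2: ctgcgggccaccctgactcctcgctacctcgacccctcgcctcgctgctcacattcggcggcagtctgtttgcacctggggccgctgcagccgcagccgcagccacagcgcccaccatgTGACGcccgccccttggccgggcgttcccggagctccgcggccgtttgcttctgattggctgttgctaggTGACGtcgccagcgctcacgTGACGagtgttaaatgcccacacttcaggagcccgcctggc

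Output genes and feedback inhibitors of the MAP kinase pathway were split, with 5 higher and 5 lower of 16 tested (18 listed). These counts stand beside 12.9% and 16.7% of all genes, and the median was -0.07. Of the Sprouty inhibitors SPRY2 and SPRY1 rose: SPRY2 (ENSG00000136158.12, chromosome 13, 80335976 to 80340951, minus strand) was 155, 150.1 and 159 CPM with FHT-1015 and 53.1, 51.1 and 51.2 CPM in DMSO (log2 fold change 1.58, SE 0.08, adjusted p 2.09e-09), and SPRY1 was 14, 13.3 and 18.5 against 3.91, 5.30 and 6.23 CPM (log2 fold change 1.56, SE 0.30, adjusted p 0.00106). The spread between replicates of SPRY2 was under 10 CPM in both groups. The phosphatase DUSP4 (ENSG00000120875.9, chromosome 8, 29333064 to 29350668, minus strand), which inactivates ERK in the nucleus, fell from 410.0, 494 and 583 CPM to 145, 149 and 164 CPM (log2 fold change -1.70, SE 0.13, adjusted p 1.04e-07). CCND1 (ENSG00000110092.3, chromosome 11, 69641087 to 69654474, plus strand), the cyclin D1 that carries growth signals into the cell cycle, fell from 299, 293 and 321 CPM to 113, 119 and 117 CPM (log2 fold change -1.39, SE 0.07, adjusted p 3.11e-09). The PEA3 factors went opposite ways, ETV1 rising by 0.45 and ETV5 falling by 0.86. DUSP6, SPRY4 and ETV4 had log2 fold changes of -0.10, -0.09 and -0.22 and were not called.

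Of 20 genes of the Gq and protein kinase C pathway, 18 were tested, with 3 higher, 7 lower and a median of -0.16. Beside 12.9% higher and 16.7% lower of all genes, the rises were not far from that share. Only 4 were lower without FHT-1015 replicate 2 at 4 h. The kinases PRKCD (18.1, 13.7 and 19 against 50.4, 45.3 and 47.2 CPM, log2 fold change -1.49, SE 0.12, adjusted p 2.81e-07) and PRKCB (2.42, 2.70 and 1.89 against 4.36, 5.94 and 4.90 CPM, log2 fold change -1.10, SE 0.25, adjusted p 0.00326) fell. RGS2 and RGS16, which switch off Gq by hastening its GTP hydrolysis, rose by 1.27 and 1.13. GNAQ itself had -0.01 and was not called. GNA11, its paralog, was lower (-0.43), a call lost without DMSO replicate 2 or 3 or FHT-1015 replicate 1 or 2 at 4 h, and RASGRP3, the exchange factor by which protein kinase C reaches RAS, fell by 0.42. Receptor tyrosine kinases held no higher gene, with 8 of 16 tested (23 listed) lower and a median of -0.51. At an unadjusted p under 0.05, 1 was higher, as with limma-voom, whereas DESeq2 called 0. ERBB3 led them, and FGFR3 fell by 1.29, MET by 1.18, DDR1 by 1.08 and ERBB2 by 0.90. IGF1R (-0.03), INSR (-0.15) and ALK (-0.34) were not called.

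Genes of the G1 phase and DNA replication were lower in 17 of 29 tested (30 listed) and higher in 1, with a median of -0.45, beside 16.7% lower and 12.9% higher of all genes. The list holds both drivers and inhibitors of the cycle, and members of both kinds fell. CDK2, the kinase of S phase entry, was 159.6, 155 and 118 CPM with FHT-1015 and 486, 475 and 407 CPM in DMSO (log2 fold change -1.66, SE 0.12, adjusted p 5.88e-08); its exons overlap ENSG00000258554 over 14.5% of their length on the opposite strand, and the value was -1.84 with the sum of both stranded columns. Among the inhibitors CDKN1C, or p57, fell from 13, 11.8 and 18.4 to 2.21, 2.92 and 3.27 CPM (log2 fold change -2.38, SE 0.27, adjusted p 8.99e-06) and CDKN1A, or p21, from 74.9, 70.7 and 68 to 30.2, 25.5 and 33.1 CPM (log2 fold change -1.27, SE 0.12, adjusted p 7.86e-07). CDKN2C, CDKN2B and CDKN1B also fell, by 1.06, 0.79 and 0.52. Cyclin E1 (CCNE1) fell by 0.92, the origin licensing factor CDC6 by 0.79 and the helicase subunit MCM2 by 0.76. CDK6, the partner of D cyclins, was the member that rose (205, 171 and 147 against 121, 108 and 123 CPM, log2 fold change 0.57, SE 0.13, adjusted p 0.00353). Of the mitosis genes, 0 of 20 were higher (0 also at an unadjusted p under 0.05 and by DESeq2 and limma-voom), the kinases AURKA and PLK1 were lower (-0.52 and -0.49), and the median was -0.19. That count of 2 ranged from 0 without FHT-1015 replicate 2 at 4 h to 6 without FHT-1015 replicate 3 at 24 h, and was 1 without DMSO replicate 1 or 3 or FHT-1015 replicate 3 at 4 h, 4 without FHT-1015 replicate 1 at 4 h and 5 without FHT-1015 replicate 1 at 24 h. It was 7 with the replicate block, with limma-voom and without the low-count filter, 6 with only the 6 samples at 4 h and 3 with DESeq2.

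Targets of the tumour suppressor p53 were lower in 11 of 18 genes, all tested, with a median of -0.46 and 0 higher (0 also at an unadjusted p under 0.05, by DESeq2 and by limma-voom, and 1 without DMSO replicate 1 at 24 h or without the low-count filter). GDF15, a stress-induced secreted factor, fell from 7.21, 5.41 and 3.81 to 1.08, 1.46 and 1.45 CPM (log2 fold change -2.05, SE 0.30, adjusted p 0.000111). TP53INP1, a cofactor of p53, fell from 67.3, 61.4 and 64.9 to 21.5, 22.9 and 21.9 CPM (log2 fold change -1.55, SE 0.10, adjusted p 3.55e-08), and SESN2, a restraint on mTORC1, from 12.3, 12.1 and 13.7 to 3.46, 4.91 and 4.90 CPM (log2 fold change -1.53, SE 0.15, adjusted p 1.7e-06). MDM2 (-0.13), BAX (-0.13) and FAS (-0.02), which p53 also induces, were not called. CDKN1A, BTG2 and SESN2 stand in other lists too. The p53 list had 61.1% called, beside 29.5% of all genes (12.9% higher and 16.7% lower). In the BCL2 family of cell death regulators 5 of 15 tested (16 listed) were lower and 1 higher, so 40.0% were called, with a median of -0.11. The falls took in the guardian BCL2 (104, 103 and 81.8 against 215, 239.9 and 223 CPM, log2 fold change -1.23, SE 0.09, adjusted p 1.24e-07) and the killers HRK (3.42, 3.76 and 3.58 against 18.4, 18.7 and 21.9 CPM, log2 fold change -2.45, SE 0.13, adjusted p 5.7e-09) and BCL2L11, or BIM (fell by 0.69). BIK, another killer, was called lower at 0.0417, 0.0884 and 0.251 against 0.838, 0.901 and 1.45 CPM (log2 fold change -3.14, SE 0.64, adjusted p 0.00162), with at most 4 reads in any treated library. BOK was the member higher (0.56); without DMSO replicate 1 at 24 h or without the low-count filter 2 were.

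Genes of cytokine reception and the JAK-STAT pathway were lower in 11 of 17 tested (18 listed), beside 16.7% of all genes, with a median of -0.56. None was higher in edgeR, against 1 at an unadjusted p under 0.05, 0 by DESeq2 and 2 by limma-voom, and 1 without FHT-1015 replicate 3 at 4 h or without the low-count filter. The falls ran from receptors to feedback inhibitors. Beside IL6R (-2.99), its signalling partner IL6ST fell by 1.05 and the transcription factors STAT5A and STAT5B by 1.25 and 0.80. SOCS3, an inhibitor that JAK-STAT signalling induces, was 0.793, 0.796 and 0.691 CPM with FHT-1015 and 3.69, 4.77 and 5.26 CPM in DMSO (log2 fold change -2.57, SE 0.25, adjusted p 1.53e-06). CISH, another of that family, was 2.63, 3.54 and 3.77 against 11.6, 9.06 and 8.89 CPM (log2 fold change -1.58, SE 0.18, adjusted p 8.58e-06). For both, the treated values were all under the control values. STAT3 (-0.13) and STAT6 (-0.05) were not called. Of 15 interferon-stimulated genes 11 were tested, and IFIT3, ISG15 and MX1 were lower by 1.02, 1.45 and 0.94. These were 27.3% of the genes tested, near the 29.5% called of all genes, and the count was 6 with limma-voom and 2 with DESeq2. The call of MX1 was lost with the sum of both stranded columns, without the low-count filter, with DESeq2 and without DMSO replicate 1 or 2 or FHT-1015 replicate 1, 2 or 3 at 4 h. None was higher in edgeR, DESeq2 or limma-voom, or at an unadjusted p under 0.05.

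Notch and YAP pathway genes were lower in 9 of 18 tested (19 listed) and higher in 2, beside 16.7% and 12.9% of all genes. The median was -0.35. NOTCH1, the receptor, fell from 62, 67.3 and 77.6 to 27.7, 24.1 and 26.1 CPM (log2 fold change -1.41, SE 0.10, adjusted p 9.26e-08), and its targets NRARP and HES1 fell by 1.45 and 0.72. CCN2 and AMOTL2, targets of YAP, fell by 1.99 and 1.71, while YAP1 itself (-0.12) was not called. HEY1, another Notch target, rose by 0.50, and TEAD1 was called higher by 0.38 with groups that overlapped, a call lost on leaving out any of 6 libraries (DMSO replicates 1, 2 and 3 and FHT-1015 replicates 1 and 2 at 4 h, FHT-1015 replicate 2 at 24 h) and with only the 6 samples at 4 h. Of the guidance genes, 4 were higher and 10 lower of 20 tested (23 listed), with a median of -0.36. The secreted semaphorins SEMA3A and SEMA3C and the ephrin EFNA5 rose by 2.09, 1.56 and 1.59, while the semaphorin receptors PLXNC1, NRP2 and PLXNA1 fell by 1.34, 1.28 and 1.14. The semaphorins SEMA6A and SEMA5A, which span the membrane, fell by 0.50 and 0.40, and the call of SEMA5A was lost without DMSO replicate 1 or 2 or FHT-1015 replicate 2 or 3 at 4 h. SEMA3C was 172, 138 and 115 CPM with FHT-1015 and 48.6, 45.9 and 49.5 CPM in DMSO, and PLXNA1 144, 155 and 130.0 against 294, 335 and 315 CPM, with no overlap in either gene. EPHB3, an ephrin receptor, was 0.125, 0.0442 and 0 against 1.45, 1.06 and 1.39 CPM, a fall for which no fold is given because the treated libraries held at most 3 reads each. The call of SEMA3D (1.5, adjusted p 0.0492) was lost on leaving out any of 10 libraries, all but FHT-1015 replicate 2 at 4 h and at 24 h, and with DESeq2 and limma-voom.

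Other lists held calls in both directions. Of all genes tested 29.5% were called, and of the WNT, adhesion and matrix, and cholesterol lists 28.6%, 32.0% and 26.7%, shares near that of all genes. Of 15 BMP and TGF-beta genes tested (18 listed) 5 were higher and 4 lower, with a median of -0.17. SKIL, a SMAD corepressor, rose from 28.1, 21.8 and 23.6 to 72.8, 61.9 and 56.9 CPM (log2 fold change 1.38, SE 0.13, adjusted p 7.43e-07), and the helix-loop-helix inhibitors went apart, ID2 rising by 1.08 and ID3 falling by 0.84. Without DMSO replicate 1, FHT-1015 replicate 2 or FHT-1015 replicate 3 at 4 h 3 genes were higher. TGFB1 was called at -0.63 but had -0.08 with the sum of both stranded columns, and it overlaps HNRNPUL1. Its call was also lost without DMSO replicate 2 or 3 or FHT-1015 replicate 1 at 4 h. Of 14 WNT genes tested (18 listed) 2 were higher (1 without DMSO replicate 3 or FHT-1015 replicate 2 at 4 h) and 2 lower (4 with limma-voom), with DACT1, a modulator of the pathway, at 1.69, TCF7L2 at 0.44, TCF7 at -0.81 and ZNRF3, a ligase that removes WNT receptors, at -0.81. Adhesion and matrix genes had 7 lower and 1 higher of 25 tested (27 listed), 11 lower without DMSO replicate 1 at 24 h and 2 higher without that library or FHT-1015 replicate 2 or 3 at 4 h. With the replicate block 13 were lower and 3 higher, with limma-voom 13 and 2, and without the low-count filter 11 and 3, so the nearness of this list's share to that of all genes did not hold in every fit. The integrins ITGA5 and ITGA6 fell by 1.26 and 1.25, and the laminin subunit LAMA4 rose by 0.82. In the ATF4 stress list 3 of 14 were higher and 4 lower, with a median of -0.22: CHAC1, a glutathione-degrading enzyme, fell from 42.2, 39.3 and 38.8 to 5.76, 8.80 and 6.85 CPM (log2 fold change -2.49, SE 0.15, adjusted p 1.24e-08) and TRIB3 by 1.25, while DDIT3, or CHOP, rose by 1.09. Only 1 was higher without DMSO replicate 1 or 3 or FHT-1015 replicate 2 or 3 at 4 h. Cholesterol genes had 2 higher and 2 lower of 15, with a median of -0.11, MVD rising by 0.90 and FDFT1 falling by 0.78, and 1 higher without FHT-1015 replicate 2 at 4 h.

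Genes of ribosome biogenesis, the assembly of ribosomes in the nucleolus, were higher in 9 of 20, all tested, beside 12.9% of all genes. The median was 0.23, and 0 were lower (0 also at an unadjusted p under 0.05 and by DESeq2 and limma-voom). RRP9, a component of the U3 particle that processes ribosomal RNA, was 55.2, 57.6 and 69.1 CPM with FHT-1015 and 35.8, 35.4 and 34.3 CPM in DMSO (log2 fold change 0.78, SE 0.10, adjusted p 1.98e-05). RRP12 was 105, 119 and 139 against 76.6, 75 and 75.9 CPM (log2 fold change 0.67, SE 0.10, adjusted p 8.42e-05). The groups did not overlap in either gene. MYC, which drives such genes, rose by 0.53. POLR1C, a subunit of RNA polymerases I and III, had 0.78, or 0.48 with the sum of both stranded columns. None of the 13 mitochondrially encoded genes was called in edgeR (median 0.15), with 2 higher at an unadjusted p under 0.05, 0 by DESeq2, 4 by limma-voom and 2 with library size alone or without FHT-1015 replicate 1 at 4 h; their summed level was 62200 to 76500 CPM with FHT-1015 and 57400 to 66800 CPM in DMSO. Of 13 histone genes 8 were tested and H4C8 was higher (0.68), a share of 12.5%, near the 12.9% higher of all genes. Without the low-count filter 2 were higher.

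Among the BAF subunits, 7 were higher and 4 lower of 28 tested (30 listed), with a median of 0.08, beside 12.9% higher and 16.7% lower of all genes. The share of the subunits that fell was thus near that of all genes. SS18L1, or CREST, the subunit that replaces SS18 in neurons, fell from 184, 189.7 and 186 CPM to 61.3, 63.4 and 61.8 CPM (log2 fold change -1.59, SE 0.09, adjusted p 5.11e-09). DPF1 and DPF3, which replace DPF2 in neurons and in muscle, fell by 1.36 and 2.74, with DPF3 at 0.292, 0.133 and 0.251 against 1.73, 1.59 and 1.27 CPM. BCL7A, another subunit, was called lower at -0.23 (adjusted p 0.0354), a call lost with library size alone, without the low-count filter and with only the 6 samples at 4 h, and on leaving out DMSO replicate 1, 2 or 3 or FHT-1015 replicate 2 at 4 h. Of their counterparts SS18 rose by 0.38, and DPF2 was called at 0.22 (adjusted p 0.0492), a call lost on leaving out any of 11 libraries, all but FHT-1015 replicate 1 at 4 h, without the low-count filter and with only the 6 samples at 4 h. ARID1B and BICRAL, subunits of the canonical and the non-canonical forms, rose by 0.37 and 0.84. The core subunits SMARCB1 (0.06), SMARCC1 (-0.10) and ARID1A (0.07) were not called. Of 20 regulators of RNA polymerase II, 3 were higher and 5 lower, with a median of -0.13; the rises were near the share of all genes. The bromodomain protein BRD2 rose by 0.37 and the acetyltransferase CREBBP fell by 0.50. Those counts moved with single libraries: 1 was lower without FHT-1015 replicate 2, 2 without DMSO replicate 2 or 3 and 3 without DMSO replicate 1 or FHT-1015 replicate 3 at 4 h or DMSO replicate 3 at 24 h, and 1 was higher without DMSO replicate 1 or 3 or FHT-1015 replicate 2 at 4 h. With library size alone 2 were lower, and with limma-voom 7.

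**Figure D3:**
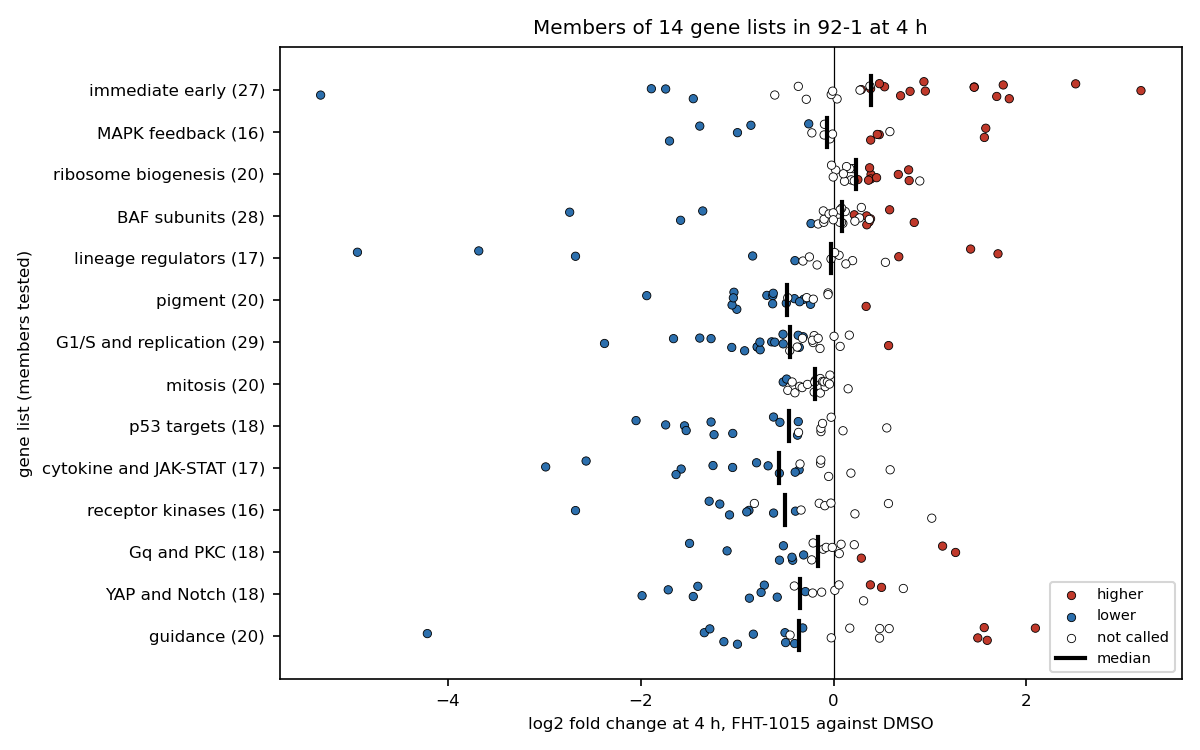
Log2 fold change at 4 h (FHT-1015 against DMSO) of each tested member of 14 gene lists, with the number tested in brackets; red and blue points are called higher and lower, white points are not called, black bars are list medians and the vertical place within a list is arbitrary. The medians are 0.38 for immediate early genes and 0.23 for ribosome biogenesis, and from -0.35 to -0.56 for the pigment, G1/S, p53, cytokine, receptor kinase, YAP and Notch, and guidance lists.

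Long noncoding RNAs were described apart: of 1775 long noncoding genes tested 10.5% were higher and 6.76% lower, with a median of 0.19, against 13.6% and 19.5% of 12588 protein-coding genes, with a median of -0.02. Their median level was 0.962 CPM and that of protein-coding genes 28.0 CPM, and in the lowest of the 4 level classes 6.32% of genes were higher and 8.34% lower. PCCA-DT (ENSG00000274605.1, chromosome 13, 100086031 to 100088848, minus strand), a divergent transcript that starts beside PCCA, was 24.9, 24.4 and 31 CPM with FHT-1015 and 8.72, 10.2 and 9.56 CPM in DMSO (log2 fold change 1.49, SE 0.15, adjusted p 1.64e-06). OSER1-DT (ENSG00000223891.5, chromosome 20, 44210960 to 44226027, plus strand), another, was 10.1, 9.64 and 12.8 against 4.36, 3.55 and 3.51 CPM (log2 fold change 1.5, SE 0.16, adjusted p 5.3e-06). LINC01443, a long intergenic RNA of chromosome 18, fell from 27.5, 22.6 and 25.2 to 5.46, 6.36 and 4.78 CPM (log2 fold change -2.17, SE 0.15, adjusted p 4.29e-08), and ATP11AUN from 8.05, 9.75 and 9.25 to 2.13, 2.30 and 1.95 CPM (log2 fold change -2.08, SE 0.18, adjusted p 5.29e-07). In all 4 the groups did not overlap. ENSG00000225606 and ENSG00000270504 also fell, by 2.07 and 2.14, but overlap the exons of SCIN and PXDC1 on the opposite strand. Among rises were ENSG00000260257 (1.80) and ENSG00000278041 (1.67). ENSG00000276805, which the annotation gives as a transcribed pseudogene and not as a long noncoding RNA, rose by 1.45.

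The called genes were also described by genomic span and promoter motif, which were not compared at matched level or gene class. The median genomic span was 41.5 kb for lower genes, 27.2 kb for higher genes and 26.6 kb for all genes tested. In 4 classes of equal size by span, 8.51% of the shortest genes (up to 8.46 kb), 16.5%, 18.1% and 23.6% of the longest (from 69.9 kb) were lower, while 11.2% to 14.2% of each class were higher. The motif CCGGAAG, which ETS factors bind, was found on either strand in 15.8% of the promoters of all genes tested, in 16.4% of higher and 9.88% of lower genes, in 7.01% of the 214 genes higher past 1, and in 4.58% of the 546 genes lower past 1 and 0.847% of the 118 lower past 2. The share was thus below that of all genes among the large changes in both directions. It was 8.82% in all 27305 promoters of the RefSeq table. Past 1, 270 falls and 207 rises were in the lowest of the 4 level classes and 86 and 19 in the highest. Whether the shares differ at matched level was not tested. TATAAA, the TATA box, was in 5.13%, 4.98%, 5.14%, 5.61%, 6.59% and 6.78% of the same sets in that order. The motifs were chosen with the calls known, and the shares are given as a description.

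The same experiment has a 24 h time point, with its own DMSO libraries, at which 9500 genes (60.6% of 15685) were called. Of the 2016 genes higher at 4 h, 910 (45.1%) were higher at 24 h, 477 (23.7%) lower and 629 (31.2%) not called. Of the 2615 lower at 4 h, 1481 (56.6%) were lower at 24 h, 440 (16.8%) higher and 694 (26.5%) not called. The 24 h effect differed from the 4 h effect, by the test of the difference itself, for 7133 genes (45.5%). For SOX10 the difference did not pass (0.25, SE 0.19, adjusted p 0.307), with -4.94 at 4 h and -4.69 at 24 h. FGF9, NRG2, ERBB3 and IL6R were lower at both times, with -3.61 and -3.53, -3.23 and -3.03, -2.68 and -2.98, and -2.99 and -3.07, and the adjusted p of the difference ran from 0.128 to 0.859.

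Other changes of 4 h were not called at 24 h or were called the other way. EGR1 went from 2.51 to -0.30 (adjusted p of the difference 2.1e-06), TNFRSF19 from 2.23 to -0.41 (5.5e-08), UBASH3B from 2.12 to -0.42 (7.04e-06) and NR4A3 from 1.82 to 0.11 (3.59e-06). DLX2 and NR4A2 went further up, to 6.35 and 4.88, and SEMA3A to 4.75. SNAI2 went from 1.42 to -1.60 (1.41e-08). The 9 ribosome biogenesis genes that were higher at 4 h belong to a list in which 0 of 20 were higher and 17 lower at 24 h. Of all 15685 genes tested 4580 were higher and 4920 lower at that time. SOCS3, TP53INP1 and CCN2, lower at 4 h, had 0.92, 0.90 and 1.22 at 24 h. The smallest p for the difference among genes called in opposite directions belonged to TRPM1 (0.34 and -5.48), PMP22, a myelin protein (0.28 and -3.02), PHLDA1, a MAP kinase target (0.47 and -2.55), ETS1, an ETS transcription factor (0.43 and -3.61), and CDK5R1, the activator of CDK5 (0.34 and -2.33). Their 4 h rises were small. The calls of PMP22 and ETS1 at 4 h were lost without DMSO replicate 3 or FHT-1015 replicate 2 at 4 h, and that of TRPM1 without DMSO replicate 1, 2 or 3 or FHT-1015 replicate 2 at 4 h. Among genes not called at 24 h, the smallest p belonged to the falls of KANK2 (-1.67 and 0.19), KIAA1522 (-2.05 and -0.21), DAB2IP (-1.48 and 0.05), AMOTL2 (-1.71 and -0.06) and DAG1 (-1.01 and 0.12). KANK2, a scaffold of focal adhesions, was 27.4, 31.7 and 29.6 CPM with FHT-1015 and 89.8, 100.4 and 91.3 CPM in DMSO at 4 h, and DAG1, the matrix receptor dystroglycan, 112, 125 and 111 against 223, 246 and 231 CPM.

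**Figure D4:**
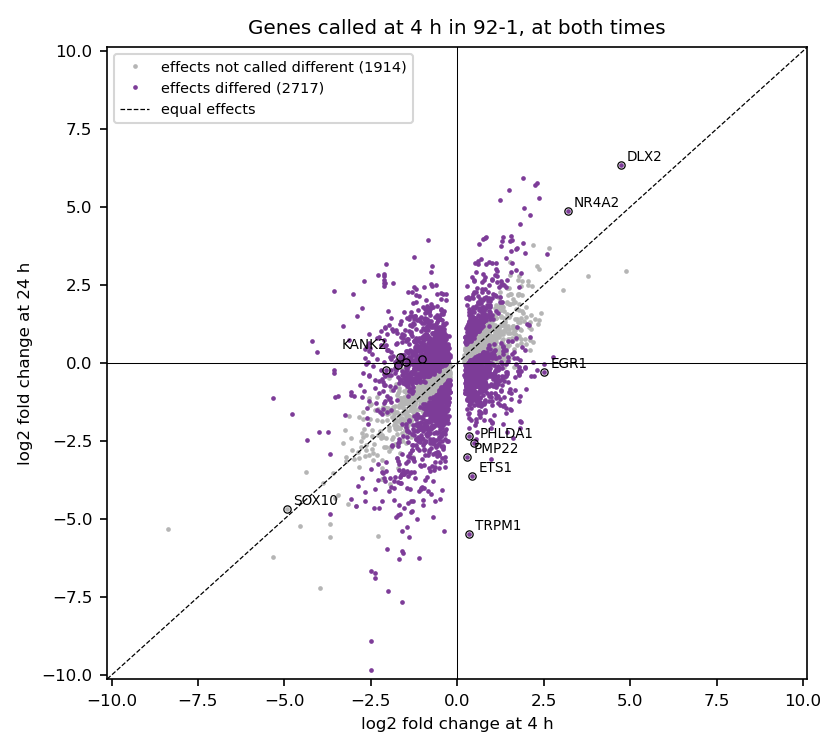
Log2 fold change at 24 h against that at 4 h for the 4631 genes called at 4 h, each time against its own DMSO libraries; purple points are genes whose effects differed between the times (adjusted p under 0.05), grey points the rest, and the dashed line marks equal effects. SOX10 lies near the line, EGR1 falls to -0.30 at 24 h and TRPM1 to -5.48.

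The 4 h changes of 92-1 were set beside those of MEL202 and MP41, which have their own DMSO libraries. Of the genes higher past 1 in 92-1, 328 were tested in MEL202, where 263 (80.2%) had a value above 0 and the median was 0.56, and 294 in MP41, where 228 (77.6%) did and the median was 0.29. Of the genes lower past 1, 652 of 723 (90.2%) were below 0 in MEL202, with a median of -0.62, and 580 of 674 (86.1%) in MP41, with a median of -0.35. Over all genes tested in both lines, 48.0% were above 0 in MEL202 and 52.3% in MP41. The lines' own fits called 108 of 15913 genes in MEL202 and 35 of 15543 in MP41, beside 4631 of 15685 in 92-1. Of the genes past 1 in 92-1, 16 were called higher and 66 lower in MEL202, and 4 and 13 in MP41. The medians of the same genes in 92-1 were 1.33 to 1.35 and -1.45. As these genes were chosen for a large change in 92-1, the sizes of their changes are not compared between lines.

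The test of the difference of the 4 h effect, in a fit of the 36 libraries of 3 lines, was passed by 117 genes (0.636% of 18395) against MEL202 and 290 (1.58%) against MP41. Both tests share the libraries of 92-1. The 8 genes that follow passed it against both lines in this fit. DLX2 was 66.8 to 115 CPM with FHT-1015 and 31.3 to 37.7 CPM in DMSO in MEL202, and 24.6 to 35.9 against 14.2 to 17.5 CPM in MP41, so it was already expressed in the untreated cells of both. The difference in log2 effect was 3.45 (SE 0.37, adjusted p 1.11e-06) from MEL202 and 3.85 (SE 0.37, adjusted p 1.78e-07) from MP41. ATOH8 had a log2 fold change of -0.29 in MEL202, with 49.9 to 99.3 CPM with FHT-1015 and 82 to 104 CPM in DMSO (difference -3.37, SE 0.30, adjusted p 3.29e-08). SS18L1, with 66.8 to 83.2 and 69.3 to 87.9 CPM there, differed by -1.49 (adjusted p 3.87e-06) and ST3GAL5 by -2.59 (4.24e-06). From MP41, EGR1 differed by 3.03 (SE 0.31, adjusted p 4.34e-07), and was 11.6 to 13.8 CPM with FHT-1015 and 17.4 to 19.6 CPM in DMSO there. PIK3IP1, with 5.53 to 6.75 and 5.52 to 6.28 CPM in MP41, differed by 2.58 (6.25e-07). ALDH1B1, a mitochondrial aldehyde dehydrogenase that fell from 168, 167 and 161 to 32.9, 39.2 and 28.9 CPM in 92-1 (log2 fold change -2.29, SE 0.10, adjusted p 8.35e-10), differed by -2.03 (6.25e-07), and SOX10 by -2.66 (7.68e-07). SOX10 fell in the other lines too, with log2 fold changes of -3.04 in MEL202 (adjusted p 0.000179) and -2.26 in MP41 (0.000449) in each line's own fit. Against the line not given, the adjusted p of the difference was 5.34e-06 for ATOH8, 1.08e-06 for ST3GAL5 and 0.000124 for SS18L1 from MP41, and 0.00486 for EGR1, 0.000325 for PIK3IP1 and SOX10 and 0.000105 for ALDH1B1 from MEL202. The count against MEL202 moved with single libraries at 4 h. It was 62 or 68 without FHT-1015 replicate 3 or 2 of 92-1, 65 or 76 without its DMSO replicate 2 or 3, 179 or 73 without DMSO replicate 1 or 3 of MEL202, and 72 or 216 without FHT-1015 replicate 2 or 3 of MEL202. A fit of only the 12 libraries of the 2 lines at 4 h gave 7 genes against MEL202 and 1172 against MP41, and in it the differences from MP41 of all 8 genes passed but, of those from MEL202, 5 did not. The adjusted p was 0.051 for SS18L1, 0.0631 for ALDH1B1, 0.138 for PIK3IP1, 0.143 for SOX10 and 0.224 for EGR1, while DLX2, ATOH8 and ST3GAL5 had 0.0125 to 0.0156.

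**Figure D5:**
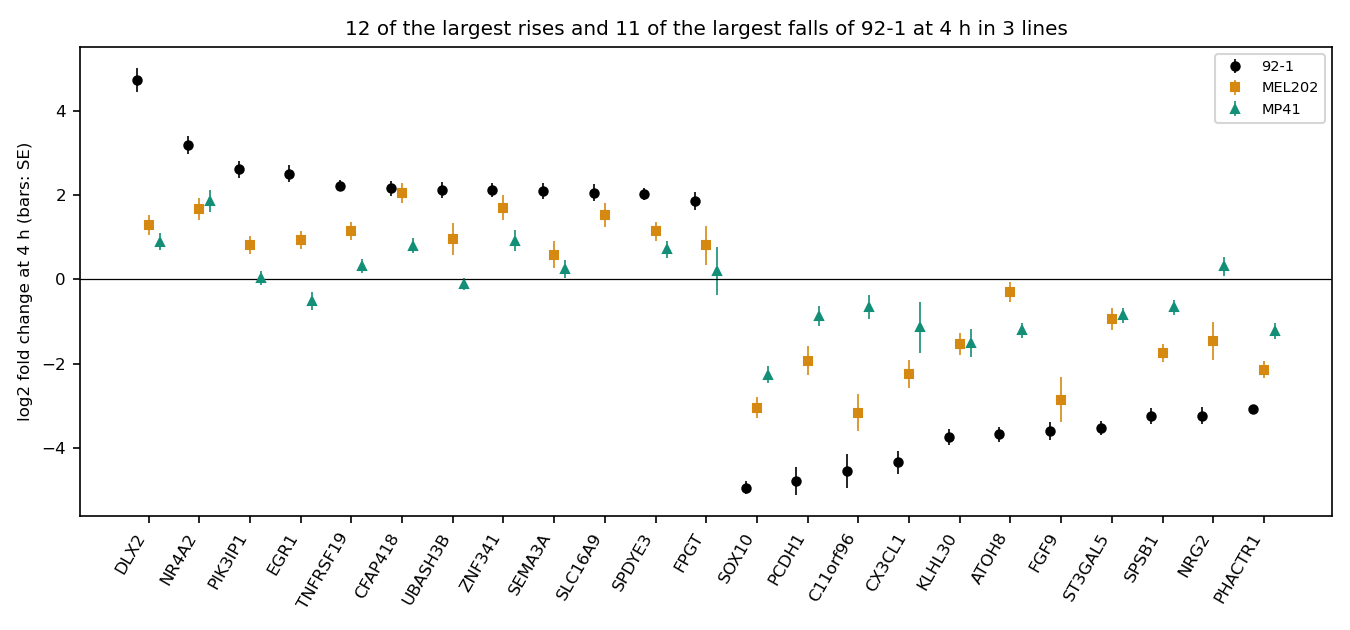
Log2 fold change at 4 h (FHT-1015 against DMSO) with its standard error for 12 of the largest rises and 11 of the largest falls of 92-1, in 92-1 (black circles), MEL202 (orange squares) and MP41 (green triangles), each from the fit of its own line. The genes were chosen for their size in 92-1, whose values lie furthest from 0; SLC16A9 and FGF9 were not tested in MP41.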

How the data were processed

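RNA-seq of 92-1 cells was used as the raw read counts per gene that the authors deposited, in the layout of STAR's gene counting. The submitters' processing notes name the build hg38 and limma; the aligner version and annotation are not given in the sources used here. Counts came from the column that ignores strand, as the first stranded column held 49.7% to 49.8% of stranded reads in the 6 libraries at 4 h and 49.73% to 50.11% in all 36 libraries. Reads outside genes, ambiguous or mapped to several places stayed out of library sizes. Coordinates and gene classes are from GENCODE release 29, which held 58597 of 58870 genes, and promoters from RefSeq.

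Counts of 12 libraries (FHT-1015 and DMSO, 4 and 24 h) were fitted by group in edgeR 4.0.16 (R 4.3.3) with TMM normalization, the low-count filter filterByExpr and the quasi-likelihood test. Of 58870 genes 15685 were tested, and p-values were adjusted over all of them by the Benjamini-Hochberg method, with calls at 0.05. The line comparisons used 36 libraries in 1 fit, and each line's own values its 12 libraries. The biological coefficient of variation was 0.117. On simulated counts with the same library sizes and genes, 84% of genes changed by 1 and 45% of those changed by 0.5 on the log2 scale were recovered at 4 h.

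The libraries compared and the gene lists were chosen with earlier results of these data known. The genes named were drawn from SMARCA4, SMARCA2, SOX10 and MITF, the 12 largest rises and falls among protein-coding genes that averaged 5 CPM or more and had replicates that did not overlap, 5 of each among other genes, up to 4 called members of each list in each direction by size, and the 5 with the smallest p of each difference, of which 1 is not reported here and some are only counted. Other list members and the promoter motifs were chosen after their values were seen. Where treated libraries held 3 reads or fewer, no fold is given. The alternatives were DESeq2 1.42.0, limma-voom (limma 3.58.1), other normalizations, no low-count filter, the sum of both stranded columns, only the libraries at 4 h, a block for the replicate number and each library left out. Groups of 3 are too small for an exact permutation test of single values to pass, so none was run.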

Additional observations from a re-analysis of the deposited data

Results flagged for a closer look

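Effects of FHT-1015 that differed between times or lines, by the test of the difference itself in edgeR, were seen for 7133 genes between 24 h and 4 h in 92-1, for 117 genes between 92-1 and MEL202 at 4 h, and for 290 genes between 92-1 and MP41 at 4 h. The values below are differences in log2 fold change, and the levels behind them stand in the report.

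Between the times (24 h minus 4 h), the differences were -5.82 for TRPM1, -4.04 for ETS1, -3.3 for PMP22, -3.02 for PHLDA1 and -2.67 for CDK5R1, which were called higher at 4 h and lower at 24 h. They were 1.85 for KANK2, 1.84 for KIAA1522, 1.66 for AMOTL2, 1.52 for DAB2IP and 1.13 for DAG1, which were called lower at 4 h and not called at 24 h.

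Between 92-1 and MEL202 (92-1 minus MEL202), the differences were 3.45 for DLX2, -3.37 for ATOH8, -2.59 for ST3GAL5 and -1.49 for SS18L1. Between 92-1 and MP41 they were 3.85 for DLX2, 3.03 for EGR1, 2.58 for PIK3IP1, -2.66 for SOX10 and -2.03 for ALDH1B1.

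Outside the gene counts, reads mapped outside genes made up 5.92% ± 0.56 (SD, n = 3) of reads with FHT-1015 at 4 h and 4.49% ± 0.20 in DMSO, and every treated library was above every control library at 4 h. DMSO replicate 2 of 92-1 at 24 h had 6.6%, above every treated library at 4 h. Whether this share bears on the gene results was not tested.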

How the results depend on the processing

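No 4 h value of the named genes changed sign under any alternative or without any library. With limma-voom 3124 genes were higher and 3562 lower at 4 h. The number of genes whose 4 h effect differed from MEL202 was 228 with DESeq2, 187 without the low-count filter and 7 with only the 12 libraries of the 2 lines at 4 h. The number that differed from MP41 was 451 with DESeq2 and 1172 with only those libraries, and the causes were not tested. Leaving out 1 library at a time gave 1404 to 2104 higher and 2038 to 2817 lower genes, 318 to 404 and 744 to 826 past 1 on the log2 scale, 6371 to 7141 that differed between times, 62 to 216 that differed from MEL202 and 195 to 244 that differed from MP41.

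Samples with the same replicate number did not deviate together in every pair (correlations of 0.238, 0.0339 and 0.105 at 4 h and of 0.0593, 0.19 and -0.163 at 24 h). The values at 4 h were all positive, so whether the numbers pair the samples was not settled. With the replicate block 2290 genes were higher and 2960 lower at 4 h, 7598 differed between times, and 138 and 320 differed from MEL202 and MP41. Of the 167 named genes 0 lost their call and 1 (MITF) gained it. Not every sample correlated best with its own number, though at 4 h each FHT-1015 library did, for replicate 2 with 0.0339 against 0.033.

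In simulated counts with 3 libraries a group 45% of genes changed by 0.5 were recovered. Of the named calls, DESeq2 lost 3 (EGR4, MX1 and SEMA3D), limma-voom 2, the sum of both stranded columns 5, library size alone 5, relative log expression 1, the fit without the low-count filter 6 and the fit of only the 6 samples at 4 h 7 of the 164 it tested (GJB1, PLCB3, BCL7A, VLDLR, BMP4, TEAD1 and S100A1). Without FHT-1015 replicate 2 at 4 h 24 of the named calls were lost, and 1 to 20 without each other library.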

Other observations

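Gene groups gathered by their symbols after the values were seen are given here as a description, with no test. Of 496 tested genes of the ZNF series, which mostly code for zinc finger proteins that bind DNA and recruit repressors, 119 (24.0%) were higher at 4 h and 41 (8.27%) lower, with a median log2 fold change of 0.17. Of the 238 of them on chromosome 19, where such genes lie in clusters, 60 were higher and 8 lower. At 24 h 249 of the 496 were higher and 63 lower, beside 4580 higher and 4920 lower of all 15685 genes tested.

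Divergent transcripts, which start beside a coding gene and run the other way, were higher in 24 of 228 (10.5%) and lower in 4 (1.75%) at 4 h, beside 12.9% and 16.7% over all genes. At 24 h 140 of them were higher and 3 lower. Of 82 genes for cytosolic ribosomal proteins 2 were higher and 0 lower at 4 h. Of 32 protocadherin genes, which code for adhesion molecules of cell contacts, 3 (9.38%) were higher and 4 (12.5%) lower at 4 h, both under the shares of all genes, and 26 were higher and 2 lower at 24 h. Their log2 fold changes at 4 h ran from -4.77 (PCDH1) to 2.37.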
